A study of Mus musculus with 4 samples.

Results

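The matrix metalloproteinases, the ADAMTS proteases and their tissue inhibitors were followed in mouse cybrid fibroblasts that differ in their mitochondrial DNA. Members were the genes whose platform symbol is Mmp with a number, Adamts with a number, or Timp1 to Timp4, and the spots of a gene were averaged on each array. This gave 41 of the 19087 genes measured, 20 Mmp, 17 Adamts and 4 Timp genes, on 76 spots. The lists of protease roles held 46 symbols, of which Mmp1b, Mmp15, Mmp27, Adamts2 and Adamts17 were not analysed here.

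Each of the 4 two-colour arrays set a culture of LMEB3(mtB6), the control cybrid with C57BL/6J mitochondria, against a culture of LMEB3(mtBALB), the mutant cybrid with BALB/cJ mitochondria. A cybrid joins the mitochondria of a donor to a recipient cell that has lost its own mitochondrial DNA, so both lines carry the name of 1 recipient, LMEB3, and are labelled as fibroblasts. Both were at passage 3 and grew in the same high-glucose DMEM, with 4.5 g/L glucose and 10% fetal bovine serum, with no further agent named. Replicates 1 and 3 carried mtB6 in Cy5, and replicates 2 and 4 carried mtBALB in Cy5. The labels call the replicates biological and the title speaks of independent clones, without saying which clone was on which array. The values are the deposited ratios of the lines, taken as log2. Which line is the numerator is not stated, so signs are read below as sides of the ratio, with neither line called the higher. In RNA of whole cultures, fewer cells with a transcript and less of it in each cell cannot be told apart.

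Matrix metalloproteinases are zinc enzymes that cut collagens, gelatins, fibronectin and proteoglycans outside the cell or at its surface, and most are made as inactive precursors. ADAMTS proteases are secreted relatives with thrombospondin repeats that trim procollagens and cut large proteoglycans such as aggrecan and versican. TIMP proteins bind the active sites of metalloproteinases, and TIMP3 also blocks ADAMTS aggrecanases. Fibroblasts are a main source of MMP2, MMP14 and the TIMPs, and they switch on the genes for stromelysin and collagenase when AP-1 factors are active.

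Many of the members gave ratios that recur exactly on an array. An exact value that at least 3 spots of an array share, as happens when a ratio is formed from small integers, is called a tie here, since no brightness was measured. Between 53.7% and 56.0% of all spots were tied on an array. Of the 76 member spots, 44 were tied on all arrays, 8 on some and 24 on none, and the last are called untied spots. A spot tied on no array was found for 10 of the 41 members (24.4%) against 51.2% of all genes. These 10 were Mmp2, Mmp9, Mmp11, Mmp14, Mmp23, Adamts4, Adamts7, Adamts14, Timp1 and Timp2. A tie can also arise otherwise, since on replicate 1 a value of 0.203 was shared by 41 spots, 17 of them of ribosomal protein genes, and 0 member spots had it.

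The windows come from RefSeq (GRCm38.p6) and run from 250 bases before to 50 bases after a gene's start. They were searched on both strands for the AP-1 site TGANTCA, for the TATA box TATAAA and for the GC box GGGCGG. Matches of different motifs cannot share letters, while matches of the same motif can, as some GC boxes of Adamts14 do. All 41 members matched a RefSeq gene and 27 had a window, 30 windows in all. The search was chosen after the values were seen, and a match is a description of letters. In the cluster of 8 Mmp genes on chromosome 9 (Mmp13, Mmp12, Mmp3, Mmp1a, Mmp10, Mmp8, Mmp20 and Mmp7), 7 genes had an AP-1 site, 8 a TATA box and 0 a GC box. Among the 6 members with a window and an untied spot, 6 had a GC box, 0 an AP-1 site and 0 a TATA box. Of the other 13 members with a window, none with an untied spot, 10 had a GC box, 0 an AP-1 site and 2 a TATA box (Adamts1 and Mmp21). Outside the cluster the motifs thus did not separate members with and without an untied spot, and of the former 4, Mmp2 and Mmp9 among them, had no window here. Over all 32851 windows, 7.81% held the AP-1 site, 13.6% the TATA box and 35.7% the GC box. The windows of Mmp3, chr9:7445572-7445871 on the plus strand, and Mmp13, chr9:7272264-7272563 on the plus strand, stand for the cluster. Those of Mmp11, chr10:75932453-75932752 on the minus strand, and Mmp14, chr14:54431348-54431647 on the plus strand, stand for the members with untied spots. Capitals mark the motif matches.
Mmp3: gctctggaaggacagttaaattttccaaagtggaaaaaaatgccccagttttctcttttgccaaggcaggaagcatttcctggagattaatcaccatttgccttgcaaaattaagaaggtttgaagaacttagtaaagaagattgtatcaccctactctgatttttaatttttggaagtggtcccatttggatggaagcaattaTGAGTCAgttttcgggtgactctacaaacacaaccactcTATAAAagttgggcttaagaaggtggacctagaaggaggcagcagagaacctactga
Mmp13: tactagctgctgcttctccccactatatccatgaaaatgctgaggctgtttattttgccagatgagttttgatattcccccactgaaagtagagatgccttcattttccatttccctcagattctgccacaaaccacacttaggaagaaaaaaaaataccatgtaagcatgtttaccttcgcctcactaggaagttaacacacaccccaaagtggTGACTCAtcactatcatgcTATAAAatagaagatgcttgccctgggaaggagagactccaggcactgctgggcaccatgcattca
Mmp11: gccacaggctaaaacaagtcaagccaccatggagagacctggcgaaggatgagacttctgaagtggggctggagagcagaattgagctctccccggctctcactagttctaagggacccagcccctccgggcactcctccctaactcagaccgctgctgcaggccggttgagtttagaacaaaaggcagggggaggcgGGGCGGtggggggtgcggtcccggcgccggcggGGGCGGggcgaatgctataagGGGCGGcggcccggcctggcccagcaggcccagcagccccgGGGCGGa
Mmp14: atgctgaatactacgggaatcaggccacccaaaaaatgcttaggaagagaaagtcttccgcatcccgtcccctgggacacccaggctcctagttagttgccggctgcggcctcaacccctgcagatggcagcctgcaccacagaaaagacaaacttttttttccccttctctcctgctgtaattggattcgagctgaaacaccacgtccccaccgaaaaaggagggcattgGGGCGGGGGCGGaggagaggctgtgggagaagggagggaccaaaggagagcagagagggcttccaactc
The AP-1 site of Mmp3 and of Mmp13 lies upstream of its TATA box, whereas the windows of Mmp11 and Mmp14 hold 4 and 2 GC boxes and neither of the other motifs.

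No protease or inhibitor gene separated the lines on all pairs. At an adjusted p of 0.05 in limma 0 members were called, against 0 of all genes, a background of 0%. At an unadjusted p under 0.05 there were 0 members on the positive side (1.59% of all genes) and 1 on the negative side (2.05% of all genes), which was Mmp11. On either side the background was 3.64%. Without the dye term the negative count was 2. No member had 1 sign on all 4 arrays, where 4.37% of all genes were positive and 4.65% negative throughout. The mean log2 ratio was above 0 for 23 members and below 0 for 18, beside 49.5% of all genes above 0. The median of the members' means was 0.01, and that of all genes was -0.00.

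**Figure D1:**
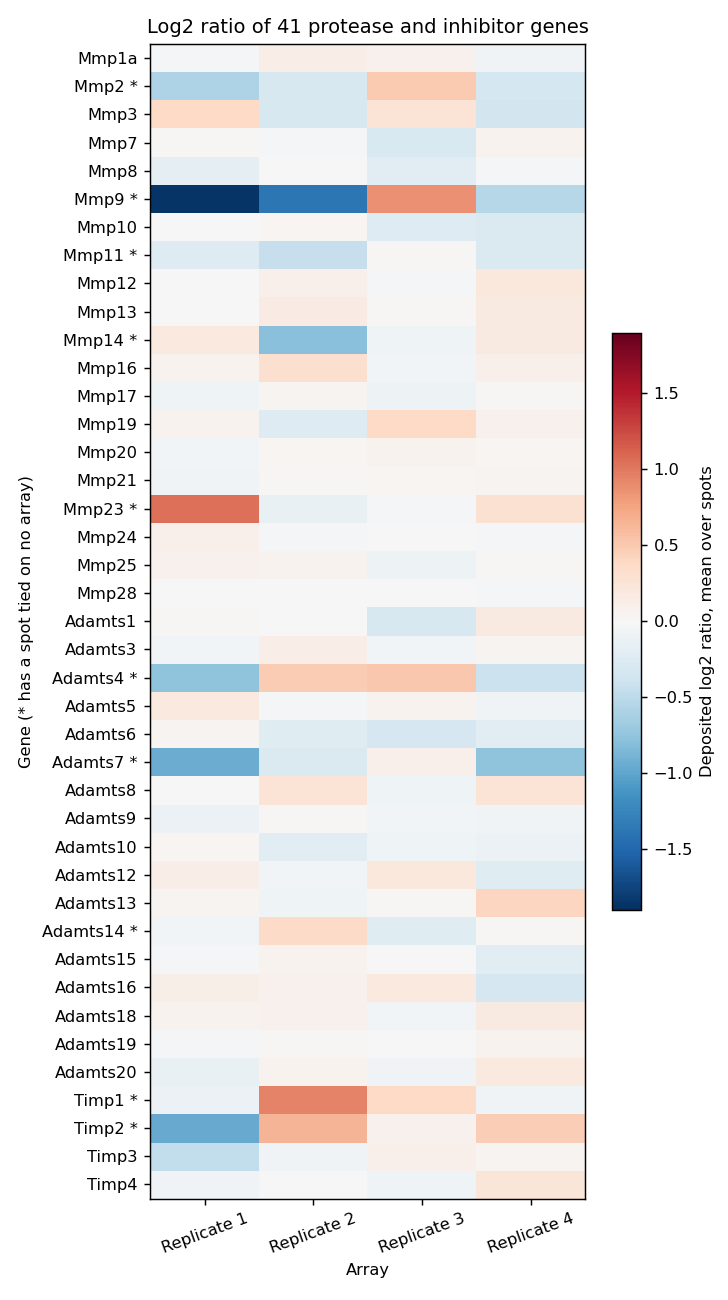
Deposited log2 ratio (colour, mean over the spots of a gene) of the 41 members (rows) on the 4 arrays (columns); an asterisk marks the 10 genes with a spot tied on no array. The strongest colours belong to genes with an asterisk, and no gene with a strong colour keeps its side on all 4 arrays.

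Size and spread went with the ties. The median half-width of the 95% interval was 0.53 for the 10 members with an untied spot and 0.16 for the others. The narrower interval of the tied genes is therefore no sign of a better measured transcript. Of the 10, the mean was below 0 in 6, beside 52.9% of all genes with an untied spot, and their medians on replicates 1 to 4 were -0.41, -0.21, 0.09 and -0.17. Positive values were counted in 2, 4, 7 and 4 of the 10 on replicates 1 to 4. Of all 9774 genes with an untied spot, 4998, 4418, 5092 and 4562 were positive there. Replicate 3 thus had the most positive values among the 10 and also among all such genes.

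**Figure D2:**
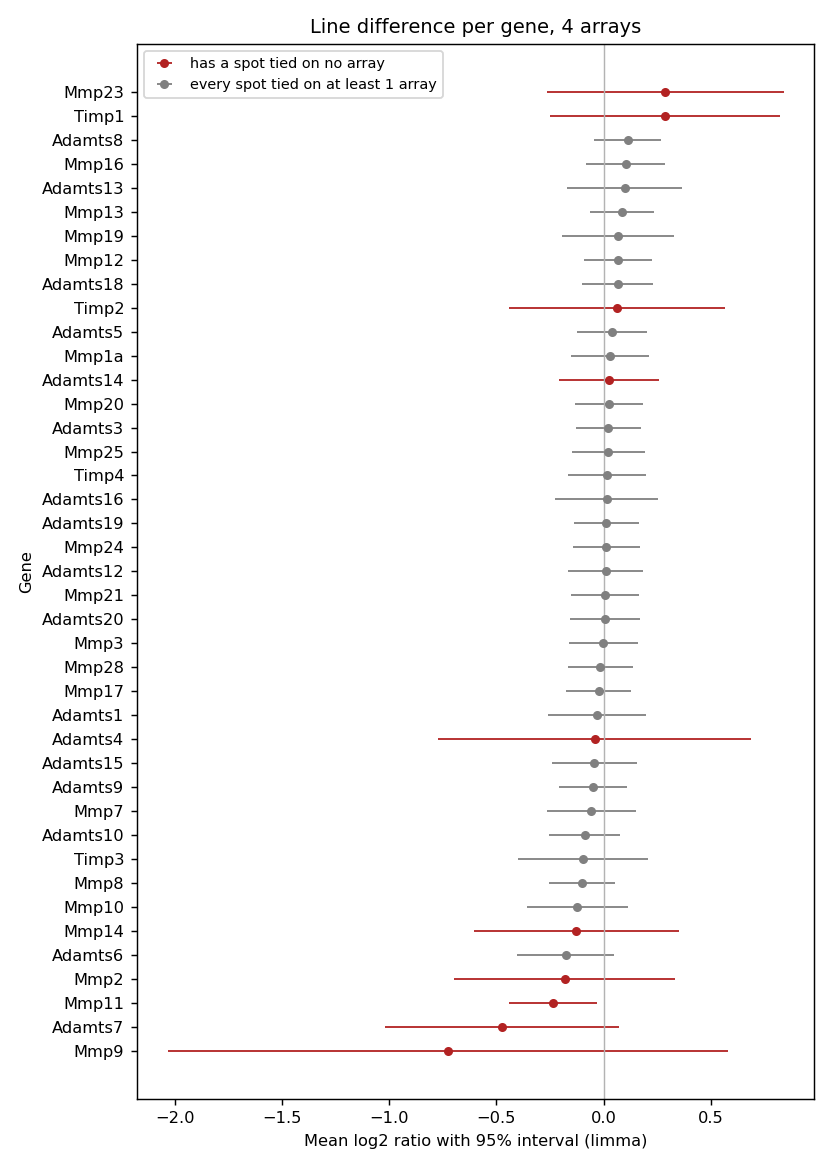
Mean log2 ratio (points) with its 95% interval from limma (bars) for the 41 members, sorted by the mean; red marks genes with a spot tied on no array and grey the others. The interval of Mmp11, -0.44 to -0.03, is the only one that leaves out 0, and that of Mmp9, -2.03 to 0.58, is the widest.

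Among the gelatinases, which digest denatured collagen and basement membrane collagen, Mmp9 lay far from 0 on every array but on different sides. Its log2 ratio was -1.86, -1.37, 0.86 and -0.54 on replicates 1, 2, 3 and 4. A log2 ratio of 1 is a 2-fold difference between the lines, so the pairs of replicates 1 and 2 differed by more than that. Replicate 3 stood on the positive side and the other arrays on the negative side, in both dye orientations. The mean was -0.73 ± 1.19 (SD, n = 4), with an adjusted p of 0.9997 in limma (unadjusted p = 0.204). Only 92 of the 19087 genes had a larger SD over the arrays.

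The disagreement of the pairs on Mmp9 was larger than the spread of its spots. It had 11 spots, all listed with 1 transcript and tied on no array. They ran from -2.01 to -1.59 on replicate 1, from -1.68 to -0.97 on replicate 2, from 0.56 to 1.08 on replicate 3 and from -0.72 to -0.14 on replicate 4. The spots of replicate 3 did not overlap those of any other array. The SD over the spots was 0.115, 0.219, 0.172 and 0.171 on replicates 1 to 4, well under the SD of 1.19 between arrays. Of all genes, 19 had a lower ratio on replicate 1, 47 a lower one on replicate 2, 75 a higher one on replicate 3 and 327 a lower one on replicate 4. Spots of 1 array share its RNA, so they show that the ratio of that pair was repeatable and add no pair.

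**Figure D3:**
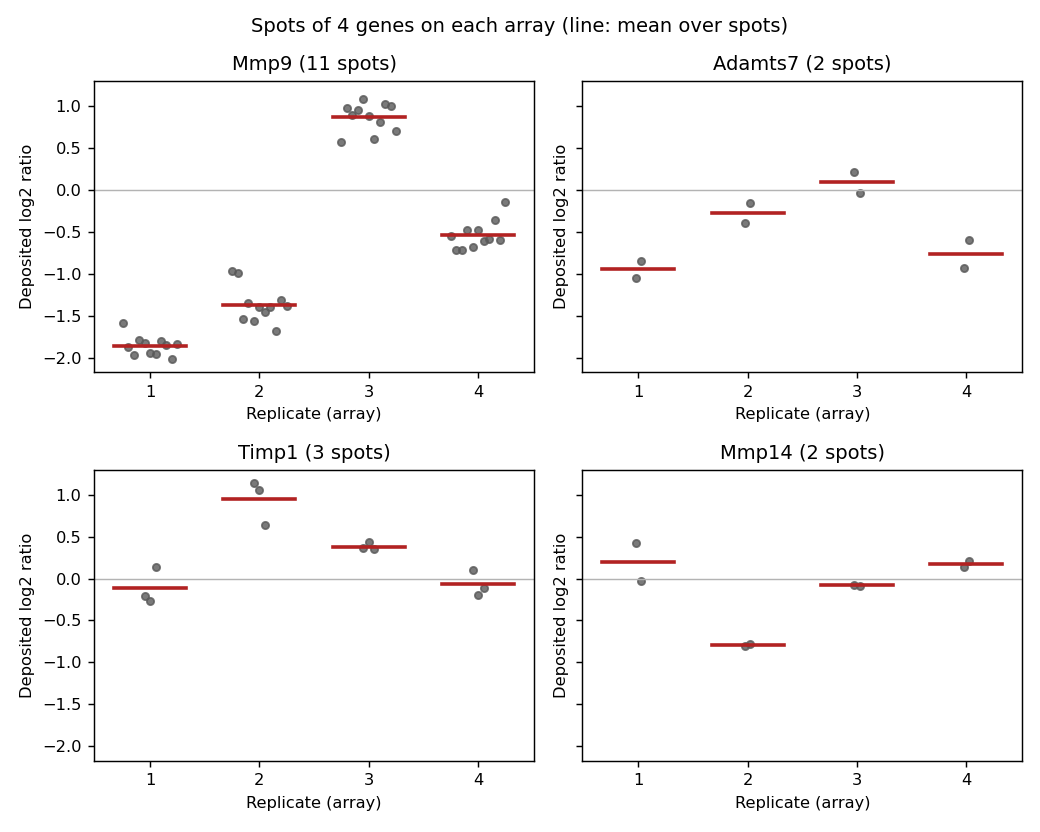
Deposited log2 ratio of each spot (points) of Mmp9, Adamts7, Timp1 and Mmp14 on the 4 arrays, with the mean over spots as a line. The 11 Mmp9 spots stay together within an array, and those of replicate 3 lie above 0 while all others lie below it.

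Mmp2, the other gelatinase, had the same order of signs at a smaller size. It read -0.58, -0.30, 0.49 and -0.33 on replicates 1 to 4, with 1 spot, and its mean was -0.18 ± 0.47 (SD, n = 4). In limma its adjusted p was 0.9997 (unadjusted p = 0.393). Both gelatinases were negative on 3 arrays and positive on replicate 3, and the share of all genes with this order was not counted. With 1 array left out, limma with its dye term gives an estimate midway between the dye orientations. The array left alone in its orientation then counts as much as the pair of the other, so this is no plain mean. It is called the dye-balanced estimate below. With replicate 3 left out, it was -1.41 for Mmp9 and -0.45 for Mmp2. With replicate 1 left out it was -0.046 and 0.088, where replicate 3 counts as much as replicates 2 and 4 together. The p-values and counts of such fits rest on the spread within the remaining pair of 1 orientation. They do not measure how well the 3 arrays match. Over all members, 6 passed an unadjusted p of 0.05 without replicate 3, where 8.27% of all genes did. They were Mmp9, Mmp2, Mmp11, Adamts7 and Timp3 on the negative side and Mmp23 on the positive side, and 5 of the 6 had an untied spot. Without replicate 1 the count was 1 on each side (8.27% of all genes on either side), without replicate 4 also 1 on each side (2.46%), and without replicate 2 it was 0 (2.23%).

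The cluster on chromosome 9 holds the interstitial collagenases, which open the collagen triple helix, with stromelysins, matrilysin, metalloelastase and enamelysin (Mmp20, the enzyme of tooth enamel). Its 8 genes were measured with 9 spots, and all 9 were tied on every array. Means ran from -0.12 to 0.09, and the single values from -0.35 to 0.38. At these ties the files do not show whether a transcript was present at all.

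Mmp3 (stromelysin 1, which cuts proteoglycans and activates other precursors) reached both ends of that range. Its log2 ratio was 0.38, -0.30, 0.26 and -0.35 on replicates 1, 2, 3 and 4. The sign thus followed the dye, positive with mtB6 in Cy5 and negative with mtBALB in Cy5, and the mean was -0.00 ± 0.38 (SD, n = 4; adjusted p = 0.9997 in limma). If the ratios had not been turned to 1 direction before deposit, the mean would be 0.33 with an unadjusted p of 0.00439 and an adjusted p of 0.546 in limma, in a reading where 8.97% of all genes passed the unadjusted threshold. Alternation with the dye was seen in 9 of the 41 members, beside 21.3% of all genes. Of the 9, 8 had no untied spot, and the remaining one, of the 10 with an untied spot, was Adamts14, where 15.4% of all genes with an untied spot alternated. Its untied spot alone read 0.08, 0.39, -0.17 and -0.08 and did not alternate, so that the pattern came with the average over its tied spot.

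Mmp13 (collagenase 3, the main interstitial collagenase of mouse fibroblasts) read -0.01, 0.16, 0.03 and 0.17 on replicates 1 to 4, with a mean of 0.09 ± 0.09 (SD, n = 4). Mmp8, the collagenase known from neutrophils, read -0.17, 0.00, -0.21 and -0.03, with a mean of -0.10 ± 0.10 (SD, n = 4). Neither moved away from 0 by more than 0.21 on an array. Exact values recur across such genes, for example 0.279 on replicate 2 as the upper spot of both Mmp1a and Adamts3.

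Mmp11 (stromelysin 3, an enzyme known from stroma during remodelling that is activated inside the cell by furin) had the smallest unadjusted p of the members with the ratios taken as turned. It read -0.24, -0.44, 0.02 and -0.28 on replicates 1 to 4, on 1 untied spot. The other 3 arrays lay on the negative side and replicate 3 near 0. The mean was -0.24 ± 0.19 (SD, n = 4) with an unadjusted p of 0.0331 and an adjusted p of 0.9997 in limma. Without replicate 1, 2 or 4 the unadjusted p was 0.110, 0.154 and 0.0736, and it was 0.105 when only genes with untied spots were fitted. Taken as not turned, its mean was 0.12 (unadjusted p = 0.177, adjusted p = 0.665 in limma), and Mmp3 had the smallest p.

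Mmp14, the membrane-type enzyme that activates the precursor of MMP2 at the cell surface, read 0.19, -0.79, -0.08 and 0.17 on replicates 1 to 4. Only replicate 2 stood apart, on the negative side. Its 2 spots were at -0.80 and -0.78 there, and at -0.03 and 0.42 on replicate 1. The mean was -0.13 ± 0.46 (SD, n = 4), with an adjusted p of 0.9997 in limma. Without replicate 2 the dye-balanced estimate was 0.11. Mmp16, also of the membrane type, had no untied spot and read 0.07, 0.30, -0.06 and 0.10, with a mean of 0.10 ± 0.15 (SD, n = 4).

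Mmp23, an enzyme anchored by its amino-terminal segment, was the member furthest on the positive side of a single array. It read 1.05, -0.15, -0.03 and 0.28 on replicates 1, 2, 3 and 4, on 1 untied spot. The mean of 0.29 ± 0.54 (SD, n = 4) rested on replicate 1, and its adjusted p was 0.9997 in limma (unadjusted p = 0.227). Without replicate 1 the remaining arrays lie between -0.15 and 0.28.

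Of the ADAMTS genes, Adamts7, which with Adamts12 cuts the cartilage oligomeric matrix protein, had the mean furthest from 0. It read -0.95, -0.28, 0.09 and -0.76 on replicates 1 to 4, with 2 untied spots. Again replicate 3 was alone on the positive side, and its 2 spots there were -0.03 and 0.22. The mean was -0.48 ± 0.47 (SD, n = 4), with a 95% interval of -1.02 to 0.07, an unadjusted p of 0.0739 and an adjusted p of 0.9997 in limma. Without the dye term the unadjusted p was 0.0385 in limma. The dye-balanced estimate was -0.21, -0.60, -0.74 and -0.35 without replicates 1, 2, 3 and 4. Adamts12 had no untied spot and read 0.13, -0.06, 0.21 and -0.23, a pattern that alternates with the dye.

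Adamts4 (aggrecanase 1) split the pairs evenly. It read -0.76, 0.49, 0.51 and -0.41 on replicates 1, 2, 3 and 4, on 1 untied spot. The mean was -0.04 ± 0.64 (SD, n = 4), with a 95% interval of -0.77 to 0.69 in limma. That interval leaves room for a difference of either side, so a small mean does not show that the lines had equal Adamts4.

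The remaining proteoglycan-cleaving genes had no untied spot. Adamts1, a versican-cleaving enzyme known from ovulation, read 0.02, -0.01, -0.31 and 0.17 on replicates 1 to 4, with a mean of -0.03 ± 0.20 (SD, n = 4). Of its 2 spots, 1 was tied on replicate 2 alone and read -0.49 on replicate 3. Its neighbour on chromosome 16, Adamts5 (aggrecanase 2), read 0.18, -0.02, 0.06 and -0.07, with a mean of 0.04 ± 0.11 (SD, n = 4). Adamts8 read 0.01, 0.26, -0.08 and 0.26, with a mean of 0.11 ± 0.18 (SD, n = 4), and Adamts15, beside it on chromosome 9, had a mean of -0.04. Each of these genes had values on both sides of 0.

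Adamts14, which removes the amino-terminal propeptide of procollagen, read -0.05, 0.36, -0.23 and 0.02 on replicates 1 to 4, with a mean of 0.03 ± 0.25 (SD, n = 4). It had 1 untied spot of 2. Adamts6 read 0.05, -0.22, -0.32 and -0.22, with a mean of -0.18 ± 0.16 (SD, n = 4) and an unadjusted p of 0.0977 (adjusted p = 0.9997 in limma). Its spots were tied, and with 1 array left out its dye-balanced estimate ran from -0.27 without replicate 1 to -0.084 without replicate 3.

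The 20 members not described one by one had means from -0.12 to 0.10 and single values from -0.32 to 0.40. Of them, 13 had a mean above 0 and 7 below, and the smallest unadjusted p was 0.219. The highest single value was that of Adamts13, the protease of von Willebrand factor, with 0.40 on replicate 4.

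**Figure D4:**
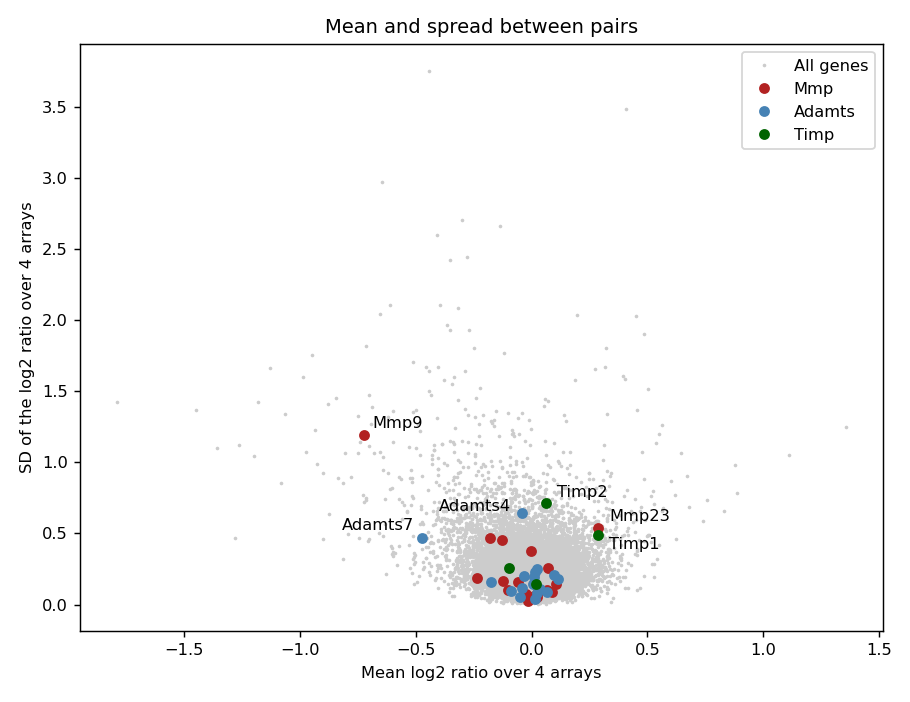
SD against mean of the log2 ratio over 4 arrays for all 19087 genes (grey) and the Mmp, Adamts and Timp genes (coloured). Mmp9, with a mean of -0.73 and an SD of 1.19, and Adamts7, with a mean of -0.48 and an SD of 0.47, have the means furthest from 0, while Timp2 and Adamts4 have larger SDs than Adamts7, 0.72 and 0.64, at means near 0.

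The inhibitors did not move as a group. Their medians on replicates 1 to 4 were -0.29, 0.32, 0.09 and 0.14. The positive ones numbered 0, 2, 3 and 3 of the 4 genes on these arrays, beside 9578, 9287, 9721 and 9307 of all 19087 genes. Means were above 0 for 3 genes and below 0 for 1.

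Timp1, a secreted inhibitor that also binds the precursor of MMP9, read -0.11, 0.95, 0.38 and -0.07 on replicates 1 to 4. Replicate 2 was highest, where its 3 spots ran from 0.64 to 1.14, and replicates 1 and 4 lay near 0. The mean was 0.29 ± 0.49 (SD, n = 4), with a 95% interval of -0.25 to 0.82 and an adjusted p of 0.9997 in limma (unadjusted p = 0.219). The dye-balanced estimate was 0.03 without replicate 2 and 0.54 without replicate 4.

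Timp2, which bridges MMP14 and the precursor of MMP2 during activation, had the largest SD of the inhibitors. It read -0.95, 0.65, 0.09 and 0.47 on replicates 1, 2, 3 and 4, on 1 untied spot. Replicate 1 was alone on the negative side. The mean was 0.06 ± 0.72 (SD, n = 4; adjusted p = 0.9997 in limma), and the dye-balanced estimate without replicate 1 was 0.32.

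Timp3, which is bound to the matrix, read -0.47, -0.06, 0.09 and 0.05, with a mean of -0.10 ± 0.26 (SD, n = 4). Timp4 read -0.07, -0.00, -0.09 and 0.23, with a mean of 0.02 ± 0.14 (SD, n = 4). Neither had an untied spot. Their ranges overlapped those of Timp1 and Timp2.

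**Figure D5:**
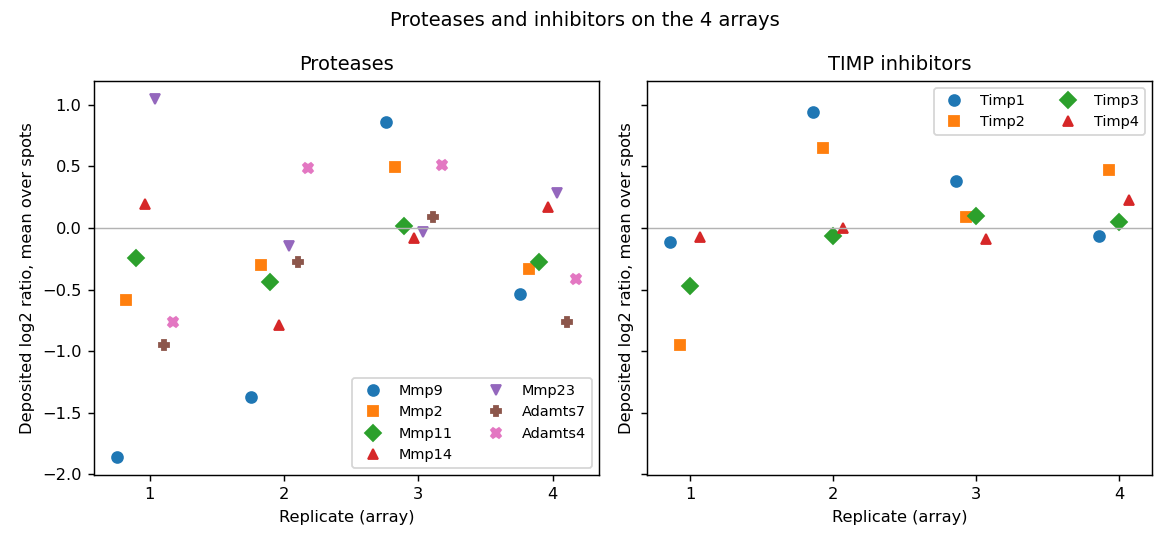
Deposited log2 ratio (mean over spots) of 7 proteases (left) and the 4 TIMP inhibitors (right) on each array. Mmp9, Mmp2, Mmp11 and Adamts7 are below 0 on replicates 1, 2 and 4 and above 0 on replicate 3, whereas Timp1 and Timp2 are above 0 on replicates 2 and 3.

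Set beside the inhibitor it is known to meet, Mmp9 minus Timp1 was -1.74, -2.31, 0.48 and -0.47 on replicates 1 to 4, with a mean of -1.01 ± 1.26 (SD, n = 4). Mmp2 minus Timp2 was 0.37, -0.95, 0.41 and -0.80, with a mean of -0.24 ± 0.73 (SD, n = 4). Mmp14 minus Timp2 was 1.15, -1.43, -0.16 and -0.30, with a mean of -0.19 ± 1.06 (SD, n = 4). These pairs were chosen after the values were seen, and no difference kept its side on all 4 arrays. With 1 array left out in turn, the dye-balanced estimate of Mmp9 minus that of Timp1 ranged from -1.57 to -0.46. For Mmp14 minus Timp2 it was 0.096 without replicate 2 and 0.139 without replicate 3. These are no plain means of the differences printed above, which can lie on the other side of 0. Taken as not turned, the 3 means were 0.38, 0.63 and 0.68, all on the positive side.

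The lists of genes that act with the proteases are read against the 3.64% of all genes with an unadjusted p under 0.05. Of 13 activators, inhibitors and clearance receptors 1 had an unadjusted p under 0.05, on the negative side. It was Lrp1, the endocytic receptor that clears MMPs and ADAMTS proteases from the cell surface, which read -0.28, -0.53, -0.04 and -0.31 on replicates 1 to 4. All its arrays lay on the negative side, with a mean of -0.29 ± 0.20 (SD, n = 4), an unadjusted p of 0.018 and an adjusted p of 0.9997 in limma. The unadjusted p was 0.0604 without replicate 1, 0.0979 without replicate 2, 0.178 with untied spots only and 0.146 with 1 spot per gene. Taken as not turned, the mean was 0.13. Reck, a membrane-anchored inhibitor of MMP2, MMP9 and MMP14, read -0.09, -0.39, 0.25 and -0.48, on 1 spot that was not untied. It was positive on replicate 3 alone, an order whose share among all genes was not counted. Furin, the convertase that activates MMP11 and MMP14, read -0.51, 0.45, -0.01 and -0.26.

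Of 7 measured genes of plasminogen activation, 11 ADAM proteases, 7 ADAMTS-like proteins, 5 procollagen C-proteinases and enhancers and 16 substrates, 0 had an unadjusted p under 0.05 in limma. Plat, which encodes the tissue-type activator of plasminogen, read -0.17, -0.23, 0.02 and -0.11, near 0 on replicate 3, with a mean of -0.12 ± 0.11 (SD, n = 4). Of its 3 spots 1 was untied, with a mean of -0.33 and an unadjusted p of 0.0354 among untied spots only (adjusted p = 0.9994 in limma). The count of its list thus went from 0 to 1, and the matching share of all genes was not counted. Adam15, a membrane-anchored disintegrin metalloproteinase, was negative on all arrays at -0.08, -0.17, -0.11 and -0.26. Its mean was -0.15 with an unadjusted p of 0.0509 (adjusted p = 0.9997 in limma). On 1 of its 2 spots the mean was -0.29 with an unadjusted p of 0.0185, and with untied spots only the unadjusted p was 0.225. Nid1, which encodes the basement membrane link protein nidogen, was positive on all arrays at 0.26, 0.52, 0.22 and 0.02. It had an unadjusted p of 0.0618 (adjusted p = 0.9997 in limma) and no untied spot, so it has no value with untied spots only.

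Among 11 AP-1 and ETS factors, 10 had an untied spot and 0 an unadjusted p under 0.05 in limma. The count was 4 without replicate 1 (8.27% of all genes), 1 without replicate 2 (2.23%), 2 without replicate 3 (8.27%) and 1 without replicate 4 (2.46%). Such counts rest on the spread within the pair left in 1 orientation. With the ratios taken as not turned the count was 1 (8.97% of all genes). Their list medians were 0.39, -0.05, -0.40 and 0.03 on replicates 1 to 4. On replicate 3 Fos read -1.77, Jun -1.41 and Junb -1.20, the lowest values of the list there, while 2 of the 11 factors were positive. Fos read 0.40, -0.69 and 0.33 on replicates 1, 2 and 4. Fos, Jun and Junb are known as immediate early genes, and their part in the protease values was not tested. Jund, the AP-1 member with the smallest p, read -0.15, -0.84, -0.73 and 0.09, with a mean of -0.41 ± 0.45 (SD, n = 4).

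Of 12 fibroblast markers, 7 had an untied spot, whereas Thy1, Vim, Dcn, Lum and Fap had none, and Vim shared on 1 spot the value that ribosomal protein genes share. At an unadjusted p under 0.05 in limma the fibroblast list had 1 gene on each side. Of all genes, 1.59% passed on the positive side and 2.05% on the negative side. Col1a1, a chain of type I collagen, read 2.51, -0.02, 0.84 and 1.12 (unadjusted p = 0.0297), and Pdgfrb, a receptor of platelet-derived growth factor, was negative on all arrays with a mean of -0.47 (unadjusted p = 0.017), both with an adjusted p of 0.9997 in limma. None of the 4 epithelial and 4 endothelial markers had an untied spot. Of the 5 measured macrophage markers, Lyz2 and Tyrobp had one, and of 6 neutrophil markers Camp alone. Macrophages and neutrophils are known sources of Mmp9. Camp, chosen here after its values were seen, read -0.86, -1.18, 0.74 and -0.30, the same order of sides as Mmp9. None of the other neutrophil markers had that order. S100a8 lay between -0.27 and 0.19 and Mpo between -0.27 and 0.07. S100a9 lay between -0.08 and 0.12, Elane between -0.17 and 0.21 and Ngp between -0.08 and 0.10. Lyz2 read -0.22, -0.61, -0.23 and -0.23, without the positive value on replicate 3, and was the 1 macrophage marker with an unadjusted p under 0.05 (0.0162, adjusted p = 0.9997 in limma). The neutrophil, epithelial and endothelial lists had 0. The part of other cells in the Mmp9 ratios was not tested.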

How the data were processed

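The values are the log ratios of the deposited value table, 1 per spot and array, taken as log2 because limma, which the submitters' processing notes name without a version, works on that scale. Background correction, normalization, filters and genome build were not given in the sources used here. Medians over spots were -9.76e-04, -0.0033, 0.0051 and -0.0030 on replicates 1 to 4. Of 171 unnamed spots of large ratio, 163 alternated in sign with the dye and 0 kept it, as control transcripts do once ratios are turned to 1 direction, so the deposited log2 ratios were taken as turned. Arrays of opposite orientation correlated at -0.24 to -0.17, and those of the same orientation at -0.00 and 0.27, so an alternative took the ratios as not turned.

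Of 45220 spots, 33653 had 1 gene, 56 several and 11511 none in GEO's platform annotation. Gene means were fitted in limma 3.58.1 (R 4.3.3) with a mean and a dye term and Benjamini-Hochberg adjustment over 19087 genes, and the fit was tested on simulated data. Residual degrees of freedom were 2, and 4 arrays limit the precision. With the dye term, p-values and intervals measure the spread between arrays of the same dye orientation. They leave out the spread between orientations, which the SD over the 4 arrays holds. Mmp3, for example, had an SD of 0.38 and a standard error of 0.06 in limma. With 1 array left out, only the pair in 1 orientation gives this spread. Scanner intensities were not used here.

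Members, lists and alternatives were chosen with earlier results of these data known. Named were all Timp genes, the 5 members of smallest p on each side, the 5 of largest SD, the 3 of largest dye effect among those alternating, members with an untied spot and an absolute mean of at least 0.2, and the best known fibroblast members. From the other lists, genes were named by smallest p. Furin, Fos, Jun, Junb, Camp, Col1a1, Pdgfrb, Lyz2, S100a8, S100a9, Mpo, Elane, Ngp, Mmp1a, Adamts3, Adamts13 and Adamts15 were named after their values were seen. Promoter windows come from RefSeq.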

Additional observations from a re-analysis of the deposited data

Results flagged for a closer look

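Among 59 sets of 4 values tested, from 35 genes and their lists, 2 had a value standing apart by Dixon's criterion, which chance meets in about 1 in 20 sets. Fosb, an AP-1 subunit, read 0.387 on replicate 1 and -0.45, -0.37 and -0.32 on replicates 2 to 4. Serpinb2, which encodes an inhibitor of plasminogen activators, read 0.9164 on replicate 2 and 0.13, 0.05 and -0.01 on the other arrays. Neither gene had an untied spot. None of the 21 named members had a value set apart in this way. Beyond the annotated genes, 163 unannotated spots kept a log2 ratio of 0.6 or more in size on every array, and their sign followed the dye orientation.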

How the results depend on the processing

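The fit had 4 arrays and 2 residual degrees of freedom, and signal over background is unknown. Under all 11 alternatives 0 members passed the adjusted threshold, with adjusted p of the named members from 0.457 to 0.9999. The 11 members (Adamts5, Adamts6, Adamts7, Adamts8, Mmp8, Mmp9, Mmp11, Mmp13, Mmp16, Mmp23 and Timp1) kept their side under each alternative that gave them a value, leaving aside the one that takes the ratios as not turned. Under that one Adamts5, Mmp8 and Mmp23 also kept it. Adamts5, Adamts6, Adamts8, Mmp8, Mmp13 and Mmp16 have no untied spot and so no value with untied spots only.

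Taken as not turned, the unadjusted threshold of 0.05 called 1 positive and 0 negative members (8.97% of all genes on either side). In that reading 4 were positive and 5 negative on every array (21.3% of all genes on either side), and the members' median was -0.026. Of the 21 named members, 14 changed side: Adamts6 0.045, Adamts7 0.047, Adamts8 -0.15, Adamts14 -0.16, Mmp2 0.14, Mmp3 0.33, Mmp9 0.23, Mmp11 0.12, Mmp13 -0.077, Mmp14 0.18, Mmp16 -0.10, Timp1 -0.15, Timp2 -0.50 and Timp4 -0.10. So did Adam15 0.058, Adamtsl5 0.13, Fosb 0.20, Lrp1 0.13, Nid1 -0.014, Plat 0.049, Reck 0.26, Serpinb2 -0.18 and Tll2 0.034. The alternative itself changes the sign of replicates 2 and 4.

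At an unadjusted p under 0.05 the negative side held 2 members without the dye term and 0 with untied spots only, where the members' median was -0.084 because 10 genes were left. Members negative on every array numbered 1 with the median over spots, 2 with 1 spot per gene and 1 with arrays centred on untied spots. In the main setting 4.65% of all genes were negative throughout. The matching shares of all genes under these alternatives were not counted, so these numbers are no result about the members. The cause was not tested.

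Leaving out each replicate in turn, the positive calls ranged from 0 to 1 and the negative calls from 0 to 5, the most without replicate 3. Members positive on every array then ranged from 1 to 5 and negative ones from 1 to 5, where 3 arrays have to match in place of 4. The matching share of all genes was not counted, so these numbers are no result about the members. The p under 0.05 background was 8.27%, 2.23%, 8.27% and 2.46% of all genes without replicates 1 to 4. The dye-balanced estimates, which are no plain means of the 3 arrays, crossed 0 for some genes where plain means need not. These were Adam17 (-0.52 to 0.0013), Adamts1 (-0.12 to 0.052), Adamts4 (-0.36 to 0.28), Adamts12 (-0.033 to 0.054), Adamts14 (-0.061 to 0.11), Adamtsl2 (-0.13 to 0.044) and Fosb (-0.38 to 0.0015). Further ones were Mmp2 (-0.45 to 0.088), Mmp3 (-0.032 to 0.028), Mmp14 (-0.37 to 0.11), Pcolce (-0.0048 to 0.17), Timp2 (-0.20 to 0.32), Timp3 (-0.24 to 0.045) and Timp4 (-0.040 to 0.074). No paired analysis was possible because the replicate pair is already inside each ratio, so no fit without that block can be set against it.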
